A study of Homo sapiens with 16 samples.

Results

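The BCL2 family decides whether the mitochondrial outer membrane stays closed in a cell under stress. The 10 genes of the family described here were found by matching the Ensembl identifiers of the deposited tables to the symbols BCL2, BCL2L1, BCL2L2, MCL1, BAK1, BCL2L11, BAD, BID, BMF and BIK, and all 10 were present among the 26410 genes measured. RNA was sequenced from SH-SY5Y cells, a human neuroblastoma line, in 16 libraries. Clones KO11 and KO28 are labelled TRPM2 KO and were made with a Cas9 vector carrying a TRPM2 guide, and clones Scr13 and Scr16 are the controls, made with the same vector carrying a scrambled guide. All 4 clones also received the donor vector with GFP and puromycin markers and were grown from single cells under puromycin. Each clone was sequenced in 2 replicates without treatment and in 2 after 24 h of doxorubicin, a drug that damages DNA, so that each of the 4 groups (TRPM2 KO or Scr, untreated or doxorubicin) held 4 libraries. Doxorubicin was at 0.3 µM by the labels of the samples and at 3 µM by the series' design text. The libraries of a group came from only 2 clones, so a difference between genotypes cannot be told apart from a difference between clones, and the p-values measure the spread between these libraries. Sequencing depth ranged from 10481177 to 25086085 reads on genes.

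In the textbook account, BAK1 and its relative BAX are the effectors that open the outer membrane and let cytochrome c out, after which caspases dismantle the cell. The survival proteins encoded by BCL2, BCL2L1 (BCL-XL), BCL2L2 (BCL-W) and MCL1 hold the effectors back. The BH3-only proteins, among them BIM from BCL2L11, BAD, BID, BMF and BIK, bind the survival proteins or the effectors and shift this balance toward death. Neuroblastoma cells are known for their dependence on BCL2 and MCL1, and p53, which doxorubicin activates, raises transcription of several death genes of the family.

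The targeted gene was examined first as a check of the labels. The guide sequence in the labels was found in 5 GENCODE 29 transcripts and in 1 gene, TRPM2, a calcium channel gene, on the plus strand of GRCh38 at chr21:44353718-44353737. The site lies in the coding sequence, in exon 1 or exon 2 depending on the transcript. It is shown with the following PAM, the motif that Cas9 needs, in capitals.
TRPM2 guide site: gaggaaagctggctcggagcAGG

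Reads on TRPM2 went against the labels. The untreated libraries labelled TRPM2 KO held 35 and 37 reads in KO11 and 21 and 30 in KO28, or between 1.41 and 2.23 normalized CPM, the unit of all levels here (reads divided by library size and the authors' factor). The untreated Scr libraries held 3 and 2 reads in Scr13 and 0 and 0 in Scr16. After doxorubicin the libraries labelled TRPM2 KO held between 11 and 29 reads, the Scr13 libraries 1 each, and the Scr16 libraries 14 and 6. Per the study's methods, a deletion at the start of the coding sequence shifts the frame of the rest. RT-PCR and Western blots served there as checks of the clones. Reads anywhere in TRPM2 enter this count, also those outside the deleted stretch, so it checks neither the deletion nor the protein. The groups are called below by their labels, and every direction for KO rests on those labels.

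The cells carried the markers of their line. Of 10 adrenergic neuroblastoma markers, 9 had a mean of at least 1 normalized CPM, and STMN2 was the most abundant with a mean of 1629. TH was under 1. The summed level of the 10 was 7264 ± 280.1 normalized CPM (SD, n = 4) in untreated KO, 6917 ± 265 in untreated Scr, 7433 ± 244 in doxorubicin KO and 7572 ± 276 in doxorubicin Scr libraries. All 8 mesenchymal or fibroblast markers also had a mean of at least 1, so this criterion does not tell the marker sets apart. VIM was the most abundant of them at 275, and their sum had a higher mean in the libraries labelled KO. It was 1108 and 984 in untreated KO11, 1300.4 and 1235 in untreated KO28, 1056 and 581 in untreated Scr13 and 723 and 744 in untreated Scr16. After doxorubicin it was 1239.9 and 995 in KO11, 1347 and 1132 in KO28, 660.4 and 600.2 in Scr13 and 852 and 755 in Scr16. The untreated genotypes overlapped, since replicate 1 of Scr13 lay above replicate 2 of KO11, and the treated ones did not. The mean of this sum moved with genotype beside every KO against Scr difference given below, and its part in them was not tested. The 4 epithelial markers EPCAM, KRT8, KRT18 and CDH1 were all under 1. The 3 immune and 2 endothelial markers matched no gene of the deposited tables by symbol, so no level can be given for them.

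Levels of the 10 genes were compared per kb of exon length, since longer genes collect more reads. The length joins all exons annotated for a gene, whether or not these cells use them, so the order depends on the annotation. MCL1, a short-lived survival protein, stood highest in every group, with 61.5 ± 1.68 normalized CPM per kb in untreated Scr and 62.1 ± 6.45 in untreated KO libraries (SD, n = 4). BAD, a BH3-only gene whose protein is held inactive by phosphorylation, followed with 18.8 ± 2.11 in untreated Scr libraries, and its range overlapped that of BCL2L1 at 16.9 ± 1.39. BCL2 (9.59 ± 0.237), BID (9.07 ± 0.809), BCL2L11 (8.91 ± 0.95), BCL2L2 (8.60 ± 0.420) and BMF (8.43 ± 1.08) formed a run in which each overlapped the next, and BAK1 lay apart below them at 4.82 ± 0.96. In untreated KO libraries BCL2 was placed 7th at 7.45 ± 0.647, between BCL2L11 and BCL2L2, and its range overlapped both. BIK, a BH3-only gene of the endoplasmic reticulum, was last everywhere, with 0.213 ± 0.304 per kb in untreated Scr libraries and at most 20 reads in any library.

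**Figure D1:**
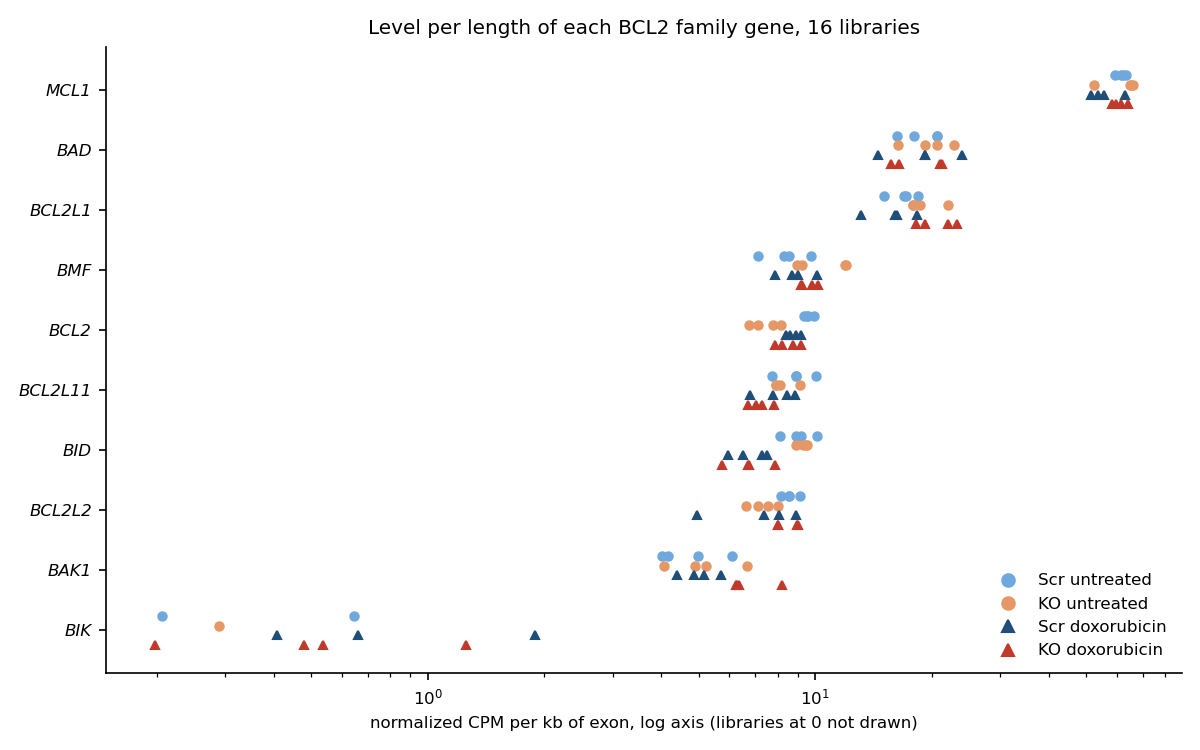
Level of each BCL2 family gene in each of the 16 libraries, in normalized CPM per kb of exon on a log axis, with one symbol per library and colour by group. MCL1 lies apart above all others and BIK apart below them, and the 6 libraries in which BIK was at 0 are not drawn.

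BCL2, the founding survival gene of the family (ENSG00000171791, GRCh38 chr18:63123346-63320128, minus strand), was lower in the untreated libraries labelled KO. It stood at 96.0 and 91.7 normalized CPM in KO11 and at 83.6 and 79.2 in KO28, against 109.9 and 111.9 in Scr13 and 112.8 and 116.6 in Scr16. The groups did not overlap, and the KO28 libraries were the lowest of all 16. The means were 87.6 ± 7.62 and 113 ± 2.79 (SD, n = 4), a log2 fold change of -0.36 (SE 0.0786, adjusted p = 0.00647, limma with Benjamini-Hochberg adjustment over all genes), and the two-sided exact permutation test gave 0.0286, the smallest p that 4 against 4 libraries allow. In bulk RNA, fewer cells with BCL2 transcripts and fewer transcripts per cell cannot be told apart. The call was lost when each clone was taken as 1 value (adjusted p = 0.0506) and without clone KO28 (0.0618), Scr13 (0.0788) or Scr16 (0.144), with log2 fold changes between -0.39 and -0.26.

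After doxorubicin the BCL2 levels of the genotypes overlapped. The libraries labelled KO held 96.3 and 92.6 normalized CPM in KO11 and 108 and 103 in KO28, and the Scr libraries 101.03 and 105 in Scr13 and 98.6 and 108 in Scr16. The difference was -0.05 on the log2 scale (95% confidence interval -0.21 to 0.12, adjusted p = 0.816). From untreated to doxorubicin, the mean moved from 87.6 to 100.02 in KO (log2 fold change 0.19, adjusted p = 0.138) and from 113 to 103 in Scr libraries (-0.13, adjusted p = 0.263), and neither passed the threshold of 0.05. In the Scr clones the untreated and treated libraries did not overlap, and in KO11 the clone mean was 93.9 without and 94.5 with the drug, while in KO28 it was 81.4 and 106. The test of whether the drug response differed between genotypes gave 0.32 on the log2 scale for BCL2 (95% confidence interval 0.10 to 0.54, adjusted p = 0.483).

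BCL2L1 encodes BCL-XL, a survival protein that restrains BAX and BAK (ENSG00000171552, chr20:31664452-31723989, minus strand). Its level after doxorubicin was 77.0 and 63.7 normalized CPM in KO11, 60.1 and 73.0 in KO28, 43.5 and 53.9 in Scr13 and 60.7 and 53.3 in Scr16. Replicate 1 of Scr16 lay above replicate 1 of KO28, so the groups overlapped. The means were 68.4 ± 7.87 in KO and 52.9 ± 7.08 in Scr libraries (SD, n = 4), a log2 fold change of 0.37 (SE 0.108, adjusted p = 0.0343 in limma), and the exact permutation test gave 0.0571. The call was lost in 5 of 8 fits that left out 1 library (replicate 1 of KO11, replicate 2 of KO28, either replicate of Scr13 or replicate 2 of Scr16), with adjusted p up to 0.158. It was also lost without a filter on low values (0.126), with clone means (0.0522), and without KO11 (0.295), KO28 (0.133) or Scr13 (0.215). Without treatment the means were 63.3 ± 6.43 and 56.0 ± 4.62, with values between 59.3 and 72.8 in KO and between 49.9 and 61.1 in Scr libraries, and the difference of 0.17 did not pass (adjusted p = 0.447). The drug response was 0.11 in KO and -0.09 in Scr libraries on the log2 scale, with adjusted p of 0.505 and 0.661.

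BCL2L2, which encodes the survival protein BCL-W (chr14:23298790-23311759, plus strand), lay between 27.7 and 33.6 normalized CPM in untreated KO and between 34.1 and 38.3 in untreated Scr libraries. These ranges did not overlap, with means of 30.7 ± 2.49 and 36.0 ± 1.76 (log2 fold change -0.23, adjusted p = 0.329). After doxorubicin the KO libraries held 37.6 and 33.6 in KO11 and 33.6 and 37.7 in KO28, and all 4 were above every untreated KO library, though the lowest treated value of 33.57 was close to the highest untreated one of 33.55 (0.21, adjusted p = 0.213). The Scr libraries were spread from 20.7 in replicate 1 of Scr16, the library with the fewest reads, to 37.3 in replicate 2 of Scr13. The interaction was 0.47 (95% confidence interval 0.09 to 0.84, adjusted p = 0.564) and leaned on that low library. Without it the interaction was 0.29 (adjusted p = 0.673), and the difference of KO from Scr after doxorubicin went from 0.24 to 0.068. In GENCODE 29 the exons of BCL2L2 overlap those of the readthrough gene BCL2L2-PABPN1 on the same strand, so reads could be split between them.

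MCL1 (chr1:150574551-150579738, minus strand) was the most abundant of the genes also without regard to length. It lay between 229 and 289 normalized CPM in untreated KO, 259 and 277 in untreated Scr, 254 and 279 in doxorubicin KO and 224 and 275 in doxorubicin Scr libraries, and all these ranges overlapped. The difference of KO from Scr was 0.01 without treatment (95% confidence interval -0.15 to 0.16, adjusted p = 0.984) and 0.12 after doxorubicin (-0.03 to 0.28, adjusted p = 0.385). Its response to doxorubicin was -0.03 in KO (adjusted p = 0.873) and -0.14 in Scr libraries (adjusted p = 0.212).

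**Figure D2:**
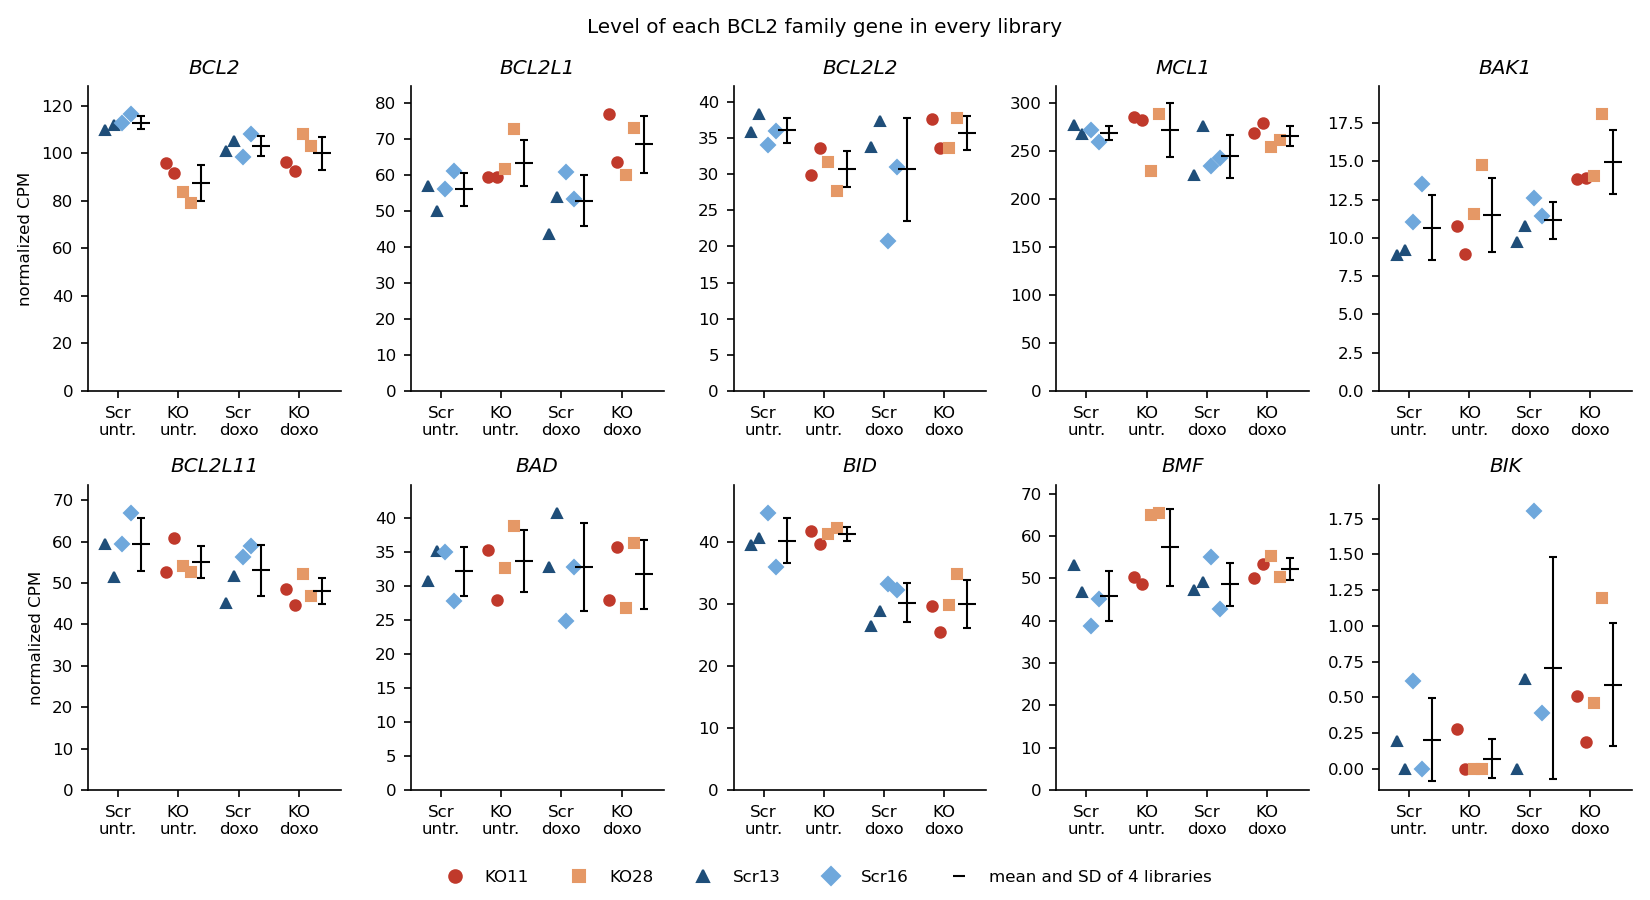
Normalized CPM of the 10 genes in each library by group, with symbols for the clones and a bar for the mean and SD of 4 libraries. Untreated KO libraries lie below all untreated Scr libraries for BCL2, doxorubicin KO libraries lie above all doxorubicin Scr libraries for BAK1, and BID is lower in all doxorubicin libraries than in all untreated ones.

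BAK1, the effector among the 10 (ENSG00000030110, chr6:33572547-33580293, minus strand), separated the genotypes after doxorubicin without passing the adjusted threshold. The libraries labelled KO held 13.8 and 13.9 normalized CPM in KO11 and 14.1 and 18.1 in KO28, and the Scr libraries 9.74 and 10.8 in Scr13 and 12.6 and 11.4 in Scr16. All 4 KO libraries were above all 4 Scr libraries. The means were 14.98 ± 2.09 and 11.1 ± 1.21, a log2 fold change of 0.39 (SE 0.169, adjusted p = 0.184, exact permutation p = 0.0286). Without treatment the levels were 10.8 and 8.98 in KO11, 11.5 and 14.7 in KO28, 8.90 and 9.21 in Scr13 and 11.1 and 13.5 in Scr16, and the ranges overlapped (0.10, adjusted p = 0.882). The response to doxorubicin was 0.36 in KO (adjusted p = 0.158) and 0.07 in Scr libraries (adjusted p = 0.861), and the interaction of 0.29 had an adjusted p of 0.843. Without untreated replicate 2 of KO28, the response in KO was 0.48 and passed (adjusted p = 0.0486). BAK1 rested on between 133 and 303 reads per library, fewer than any other of the 9 genes tested, and processed copies of it (BAK1P1 and BAK1P2) are annotated elsewhere in the genome.

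BID links the death receptors to mitochondria, since caspase-8 cuts its protein into the active form (ENSG00000015475, chr22:17734138-17774770, minus strand). It fell with doxorubicin in both genotypes. Untreated libraries held 41.9 and 39.7 normalized CPM in KO11, 41.4 and 42.3 in KO28, 39.6 and 40.7 in Scr13 and 44.8 and 36.1 in Scr16. Treated libraries held 29.8 and 25.5 in KO11, 30.0 and 35.0 in KO28, 26.5 and 28.9 in Scr13 and 33.4 and 32.4 in Scr16, and the highest treated library lay below the lowest untreated one. In Scr libraries the mean went from 40.3 ± 3.597 to 30.3 ± 3.18 (log2 fold change -0.40, SE 0.112, adjusted p = 0.0255 in limma), and in KO libraries from 41.3 ± 1.15 to 30.0 ± 3.87 (-0.46, SE 0.113, adjusted p = 0.00594), each with an exact permutation p of 0.0286. The response did not differ detectably between genotypes (interaction -0.05, 95% confidence interval -0.37 to 0.27, adjusted p = 0.977). The call in Scr was lost without a filter (0.0572), without Scr13 (0.538) and in 5 of 8 fits without 1 library (either replicate of Scr13, treated or untreated, or untreated replicate 1 of Scr16), with adjusted p up to 0.0887. The call in KO was lost only without KO11 (0.267).

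Between genotypes BID was near equal. The difference of KO from Scr was 0.04 without treatment (95% confidence interval -0.17 to 0.25) and -0.01 after doxorubicin (-0.28 to 0.25), with adjusted p of 0.921 and 0.969.

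BMF, a BH3-only gene whose protein is tied to the cytoskeleton until stress frees it (chr15:40087890-40108892, minus strand), was high in a single clone. Untreated KO28 held 64.9 and 65.5 normalized CPM, while untreated KO11 held 50.3 and 48.7, Scr13 53.1 and 46.7 and Scr16 38.7 and 45.1. The KO and Scr means of 57.4 ± 9.08 and 45.9 ± 5.90 differed by 0.31 on the log2 scale (adjusted p = 0.177), and without KO11 the difference was 0.51 and passed (adjusted p = 0.0226). After doxorubicin all 8 libraries lay between 42.8 and 55.2 normalized CPM, with KO and Scr overlapping (0.11, adjusted p = 0.614).

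BCL2L11 encodes BIM, a BH3-only protein that binds all the survival proteins (chr2:111119378-111168447, plus strand). It was 55.1 ± 3.85 in untreated KO, 59.3 ± 6.33 in untreated Scr, 48.0 ± 3.14 in doxorubicin KO and 53.03 ± 6.11 in doxorubicin Scr libraries. All 4 treated KO libraries, between 44.6 and 52.1, were below the untreated ones, between 52.7 and 60.8, with a log2 fold change of -0.19 (adjusted p = 0.175). The Scr libraries overlapped, with -0.16 (adjusted p = 0.359). BAD (chr11:64269830-64284704, minus strand) lay between 24.8 and 40.8 normalized CPM over the 16 libraries, and its 4 differences between groups were between -0.09 and 0.06 on the log2 scale with adjusted p of at least 0.712. BIK (chr22:43110748-43129712, plus strand) was at 0 in 6 of 16 libraries and at most 1.81 normalized CPM, a level at which 3 reads correspond to between 0.118 and 0.285, and it did not pass the filter on low values in any comparison.

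Over the family, 9 of the 10 genes passed the filter of at least 1 normalized CPM in at least 4 libraries and were tested. Of KO against Scr without treatment, 1 of 9 was called (BCL2), where 4.84% of 14364 genes were called, and 2 of 9 did not overlap between groups (BCL2 and BCL2L2), against 9.29% of all genes. After doxorubicin 1 of 9 was called (BCL2L1) against 8.69% of 14572 genes, and 1 of 9 did not overlap (BAK1) against 13.2%. For doxorubicin against untreated, 1 of 9 was called in Scr libraries (BID) against 11.6% of 14378 genes, and 2 of 9 did not overlap (BCL2 and BID) against 17.1%. In KO libraries 1 of 9 was called (BID) against 17.5% of 14513 genes, and 3 of 9 did not overlap (BCL2L2, BCL2L11 and BID) against 19.8%. A single call among 9 genes is near these shares, so the counts are no result about the family. GENCODE 29 places exons of other genes on the opposite strand over exons of BCL2L1, BCL2L2, BAK1, BCL2L11, BAD and BMF, and ADAMTSL4-AS1 on the same strand over MCL1, and since the use of strand in counting is not given, reads of such neighbours cannot be told apart. The median log2 fold change of the 9 was 0.04, 0.11, -0.13 and -0.03 in these 4 comparisons, beside -0.01, 0.01, -0.01 and 0.02 over all genes tested. In the interaction 0 of 9 were called by limma, by edgeR's quasi-likelihood test and by DESeq2, where limma called 0.0196% of 15325 genes, and 2 of 9 (BCL2 and BCL2L2) had an unadjusted p under 0.05, as had 7.49% of all genes. The comparisons share libraries, so their calls are not independent of each other.

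**Figure D3:**
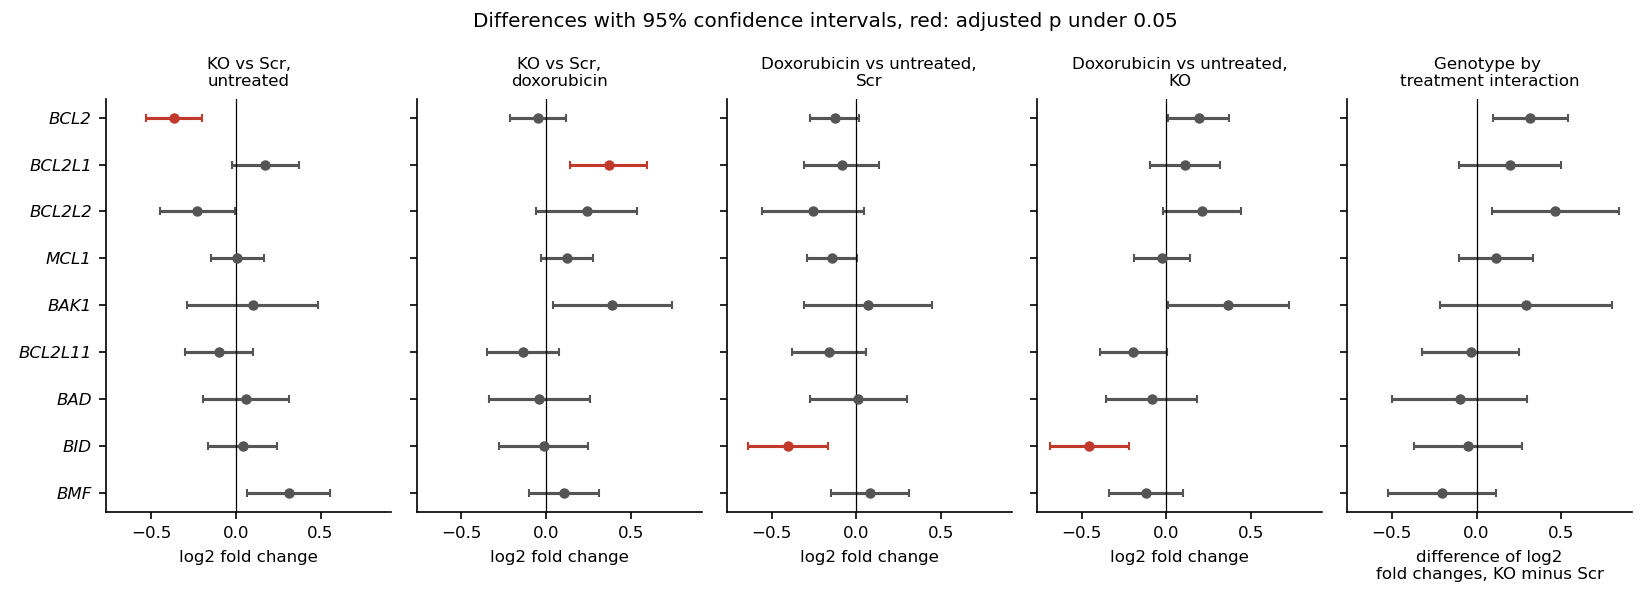
Log2 fold change of the 9 tested genes in the 4 comparisons of groups and the interaction, with 95% confidence intervals from limma and red for an adjusted p under 0.05. Red points are BCL2 without treatment at -0.36, BCL2L1 after doxorubicin at 0.37, and BID in both drug responses at -0.40 and -0.46.

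Across the 16 libraries, the 36 pairs of the 9 genes had Pearson correlations of log2(normalized CPM + 1) from -0.77 for BCL2 with BMF to 0.74 for BCL2L1 with BAK1. These are descriptions, since the libraries share clones and treatments. The promoters of these 4 genes are shown because they moved most together or most oppositely. Each is the 250 bases before the RefSeq start site on GRCh38.p14, 5′ to 3′ on the gene's own strand (minus for all 4), with capitals for the motifs searched.
BCL2L1, chr20:31723964-31724213: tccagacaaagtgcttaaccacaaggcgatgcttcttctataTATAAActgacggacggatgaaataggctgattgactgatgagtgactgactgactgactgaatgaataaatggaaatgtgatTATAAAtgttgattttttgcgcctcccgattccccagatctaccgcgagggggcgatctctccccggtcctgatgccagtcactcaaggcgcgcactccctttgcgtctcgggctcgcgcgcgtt
BAK1, chr6:33580277-33580526: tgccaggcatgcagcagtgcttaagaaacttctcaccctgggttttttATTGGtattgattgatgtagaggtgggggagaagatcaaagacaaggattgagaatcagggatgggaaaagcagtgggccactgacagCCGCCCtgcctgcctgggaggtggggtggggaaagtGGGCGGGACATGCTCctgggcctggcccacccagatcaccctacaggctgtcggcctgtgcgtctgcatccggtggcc
BCL2, chr18:63319770-63320019: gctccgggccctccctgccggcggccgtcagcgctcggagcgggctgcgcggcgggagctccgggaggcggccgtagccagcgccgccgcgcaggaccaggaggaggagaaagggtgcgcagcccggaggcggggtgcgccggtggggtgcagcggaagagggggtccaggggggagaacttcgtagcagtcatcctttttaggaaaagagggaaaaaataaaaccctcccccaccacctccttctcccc
BMF, chr15:40108880-40109129: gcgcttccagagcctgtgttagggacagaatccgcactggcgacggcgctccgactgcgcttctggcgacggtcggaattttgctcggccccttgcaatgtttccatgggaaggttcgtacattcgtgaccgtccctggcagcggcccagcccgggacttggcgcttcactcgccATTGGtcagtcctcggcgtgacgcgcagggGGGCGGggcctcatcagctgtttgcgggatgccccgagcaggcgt

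The search covered both strands. It looked for the CCAAT box by that word, for the GC box as GGGCGG and for the TATA box as TATAAA. It also looked for the CHR element, spelled TTTGAA, and for the core of FOX factor motifs, spelled TAAACA. A p53 half-site was searched as well, by a letter pattern that is not printed here. BCL2L1 held 2 TATA box matches, a motif in 10.8% of the 34788 promoter windows of all genes, and its GC content was 50.0%. BAK1 held 1 CCAAT box (32.0% of windows), 2 GC boxes (42.6%) and 1 p53 half-site (5.59%), which starts within the second GC box. BMF held 1 CCAAT box and 1 GC box at 65.2% GC, and BCL2 held none of these letters at 70.0% GC, where the median of all windows was 58.0%. Both pairs thus had different matches. Of the 10 genes, 7 matched an entry, and BCL2L2, MCL1 and BIK did not.

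The 3 genes most like each called gene over the 16 libraries, among 14480 genes with a mean of at least 1 normalized CPM, were RAD54B (Pearson correlation 0.84), RSPH3 (0.83) and PDE6B (0.82) for BCL2. They were PLOD3 (0.90), FHL2 (0.83) and DDX54 (0.82) for BCL2L1, and ZNF207 (0.92), RASL11B (0.91) and PPIF (0.90) for BID.

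The rest of the family was read from a list of 13 other BCL2 genes, of which 9 were tested. BAX, the partner effector of BAK1, was higher in the libraries labelled KO and rose with doxorubicin in both genotypes. Its means were 74.7 ± 8.34 in untreated KO, 56.6 ± 4.12 in untreated Scr, 165 ± 9.22 in doxorubicin KO and 112 ± 18.4 in doxorubicin Scr libraries (SD, n = 4). The log2 fold change of KO over Scr was 0.39 without treatment (adjusted p = 0.0148) and 0.58 after doxorubicin (adjusted p = 0.000394), and the drug response was 1.14 in KO and 0.95 in Scr libraries. BBC3, which encodes the p53-induced BH3-only protein PUMA, went from 15.2 ± 1.49 to 58.2 ± 9.21 in Scr (log2 fold change 1.86) and from 26.9 ± 5.85 to 69.7 ± 5.22 in KO libraries (1.37), and was higher in KO without treatment (0.77, adjusted p = 0.00387). PMAIP1, which encodes NOXA, an antagonist of MCL1, was higher in KO after doxorubicin at 29.4 ± 1.81 against 17.4 ± 4.56 (0.76, adjusted p = 0.00266). BOK, a further effector-like gene, was lower in untreated KO at 13.2 ± 2.65 against 23.4 ± 4.67 (-0.78, adjusted p = 0.00594) and rose with doxorubicin in KO libraries (0.84). In Scr libraries its mean went from 23.4 to 31.6 with the drug, without a call. The list was chosen with earlier results of these data known, so its counts are no test of it as a set. In all, 3 of 9 were called in KO against Scr without treatment, where 4.84% of all genes were, and 2 of 9 after doxorubicin, where 8.69% were. With the drug 5 of 9 rose in Scr and 6 of 9 in KO libraries, where 11.6% and 17.5% of all genes were called in either direction. Both counts include BCL2L13, which was lost in 10 of 19 alternatives in Scr (adjusted p up to 0.271) and in 5 of 19 in KO libraries (up to 0.128). Among these were 6 and 3 of the 8 fits without 1 library. In Scr, BCL2L13 and BNIP3L were both lost without a filter on low values and without Scr13. The median log2 fold change of the 9 with doxorubicin was 0.39 in Scr and 0.46 in KO libraries, and between genotypes 0.00 without treatment and 0.06 after it. In the interaction 0 genes of this list and of each list below were called, where 0.0196% of all genes were. A drug response called in a single genotype thus shows no difference in response between genotypes. The untreated genotype calls were lost under some alternatives, BBC3 without a filter on low values, KO28 or Scr16 (adjusted p up to 0.0947), BOK without a filter, KO11 or Scr13 (up to 0.319), and BAX without a filter, with clone means, without either replicate of Scr16, and without KO28 or Scr16 (up to 0.319). Without KO11 the calls of PMAIP1 after doxorubicin (0.0905) and of the BOK rise in KO (0.120) were lost, while BAX after doxorubicin and the rises of BAX and BBC3 kept their calls under every alternative run.

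Of 8 genes on the death receptor route to BID, TNFRSF10B, which encodes a receptor for TRAIL and was the most abundant, rose with doxorubicin in both genotypes. It went from 89.8 ± 15.4 to 233 ± 30.4 in Scr (log2 fold change 1.37) and from 119 ± 12.7 to 338 ± 19.9 in KO libraries (1.501). It was also higher in KO in both treatments (0.41 and 0.54, adjusted p = 0.0205 and 0.000168). FAS, the receptor for FAS ligand, had means of 0.835 ± 0.223 and 5.56 ± 1.61 normalized CPM in untreated and treated Scr and of 1.32 ± 0.595 and 11.6 ± 2.16 in untreated and treated KO libraries. TNFRSF10A, a further TRAIL receptor, had means of 0.205 ± 0.203 and 3.81 ± 2.32 in Scr and of 0.641 ± 0.462 and 5.80 ± 2.60 in KO libraries. Both passed the filter in the drug responses through the treated group alone, in which they were high, so their calls there are no support for a rise. After doxorubicin, where both genotypes passed the filter, FAS was higher in KO (0.96, adjusted p = 0.00607). CFLAR, which encodes FLIP, the inhibitor of caspase-8, was lower in KO at 4.90 ± 0.918 against 21.6 ± 4.27 without treatment (-1.93, adjusted p = 7.18e-07) and at 7.07 ± 1.29 against 22.1 ± 5.13 after doxorubicin (-1.51, adjusted p = 1.03e-05). TNFRSF1A, a receptor for tumour necrosis factor, was lower in KO after doxorubicin (-1.35) at 1.83 ± 0.742 against 6.55 ± 3.63. Its untreated means were 0.954 ± 0.992 in KO and 3.91 ± 1.57 in Scr libraries, and there it passed the filter through Scr alone. This list too was chosen with earlier results of these data known, so its counts are no test of it as a set. Leaving out the genes that passed the filter through 1 group alone, 2 of 5 were called between genotypes without treatment (1 higher and 1 lower in KO, against 4.84% of all genes) and 4 of 8 after doxorubicin (2 higher and 2 lower, against 8.69%). With the drug 1 of 6 was called in Scr (against 11.6%) and 1 of 5 in KO libraries (against 17.5%), and the medians in these 4 comparisons were -0.0011, 0.06, 0.35 and 0.23 on the log2 scale. TNFRSF10B without treatment was lost without a filter, without KO11 or Scr16 (adjusted p up to 0.501) and in 5 of 8 fits without 1 library (replicate 1 of KO11 or KO28, replicate 2 of Scr13 or either of Scr16). After doxorubicin FAS was lost without a filter, KO11, KO28 or Scr16 (up to 0.124) and TNFRSF1A without a filter or KO11 (up to 0.0731), while CFLAR in both treatments and the rises of TNFRSF10B kept their calls under every alternative run. CASP8, named here after its values were seen because its protein cuts BID, had group means of at most 0.259 normalized CPM and was not tested.

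Caspases start and carry out the dismantling of the cell, and the apoptosome forms around released cytochrome c. Of 9 caspase and apoptosome genes 7 were tested, and between genotypes 0 were called by limma, edgeR or DESeq2 in either treatment (against 4.84% and 8.69% of all genes by limma), with 0 and 1 at an unadjusted p under 0.05 (against 14.3% and 20.3%). Among 7 genes these counts are no result about the list. In the drug responses 2 of 7 were called in Scr (against 11.6% of all genes) and 1 of 7 in KO libraries (against 17.5%). CASP2 fell with doxorubicin in Scr (-0.38, adjusted p = 0.0303) and KO libraries (-0.37, adjusted p = 0.00204), and CYCS, the cytochrome c gene, fell in Scr libraries (-0.38, adjusted p = 0.00389). In KO libraries the CYCS mean went from 133 to 123 with the drug, without a call. Without Scr13 the Scr calls of CASP2 (adjusted p = 0.599, log2 fold change -0.17) and CYCS (0.269) were lost, and without KO11 that of CASP2 in KO (0.0703). CASP2 in Scr was also lost without a filter (0.148) and in 5 of 8 fits without 1 library (either replicate of Scr13, treated or untreated, or untreated replicate 2 of Scr16). Of 8 inhibitors of apoptosis and their antagonists 6 were tested, and 1 of 6 was called in each drug response (against 11.6% and 17.5%). BIRC5, which encodes survivin and peaks in dividing cells, fell in Scr from 164 ± 4.25 to 132 ± 9.41 (-0.32, adjusted p = 0.00614) and in KO libraries from 177 ± 7.35 to 110 ± 14.7 (-0.69, adjusted p = 3.29e-06), and its call in Scr was lost without Scr13 (0.348). Of 14 partners and turnover factors of the family's proteins, BAG6 is described apart because it passed the filter through 1 group alone. Of the other 13, 0 were called in KO against Scr without treatment by limma or edgeR and 1 by DESeq2, with 1 at an unadjusted p under 0.05 in limma. After doxorubicin 1 of 13 was called, and 2 of 13 in each drug response (1 higher, 1 lower), near the 8.69%, 11.6% and 17.5% of all genes, so the counts are no result about the list. The medians of these 3 lists lay between -0.11 and 0.16 in the 4 comparisons. PIM1, a kinase that phosphorylates BAD, was lower in KO after doxorubicin (-0.38, adjusted p = 0.0187). YWHAQ, one of the 14-3-3 genes whose proteins hold BAD, fell with the drug in Scr (-0.50) and KO libraries (-0.30), and FBXW7, which marks MCL1 for degradation, rose in KO libraries (0.40, adjusted p = 0.00663). In Scr libraries the FBXW7 mean went from 41.8 to 51.5 with the drug, without a call. AKT1 rose with the drug in Scr libraries from 216 ± 16.2 to 251 ± 7.02, while its mean in KO libraries went from 212 to 216 without a call. The AKT1 call in Scr was lost in 10 of 19 alternatives, among them 6 of 8 fits without 1 library (adjusted p up to 0.352). PIM1 was lost without a filter, KO11 or Scr16 (adjusted p up to 0.357) and in 3 of 8 fits without 1 library (either replicate of KO11 or replicate 2 of Scr13), and FBXW7 without KO11 (0.0856). YWHAQ in KO was lost without a filter or KO11 (up to 0.341) and in 4 of 8 fits without 1 library (untreated KO11, either replicate, or treated replicate 1 of KO11 or KO28). BAG6, the chaperone gene among the partners, was called without treatment and in the KO response, but in both it passed the filter through untreated KO alone, whose mean of 5.05 ± 4.34 rested on values between 1.24 and 9.76, against at most 0.866 in untreated Scr libraries. After doxorubicin it lay between 0.694 and 10.8 in Scr libraries, so single libraries were high in both genotypes. BAG6 lies in the major histocompatibility complex, for which GRCh38 holds alternate sequences, and how reads were assigned among them is not given in the sources used here.

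**Figure D4:**
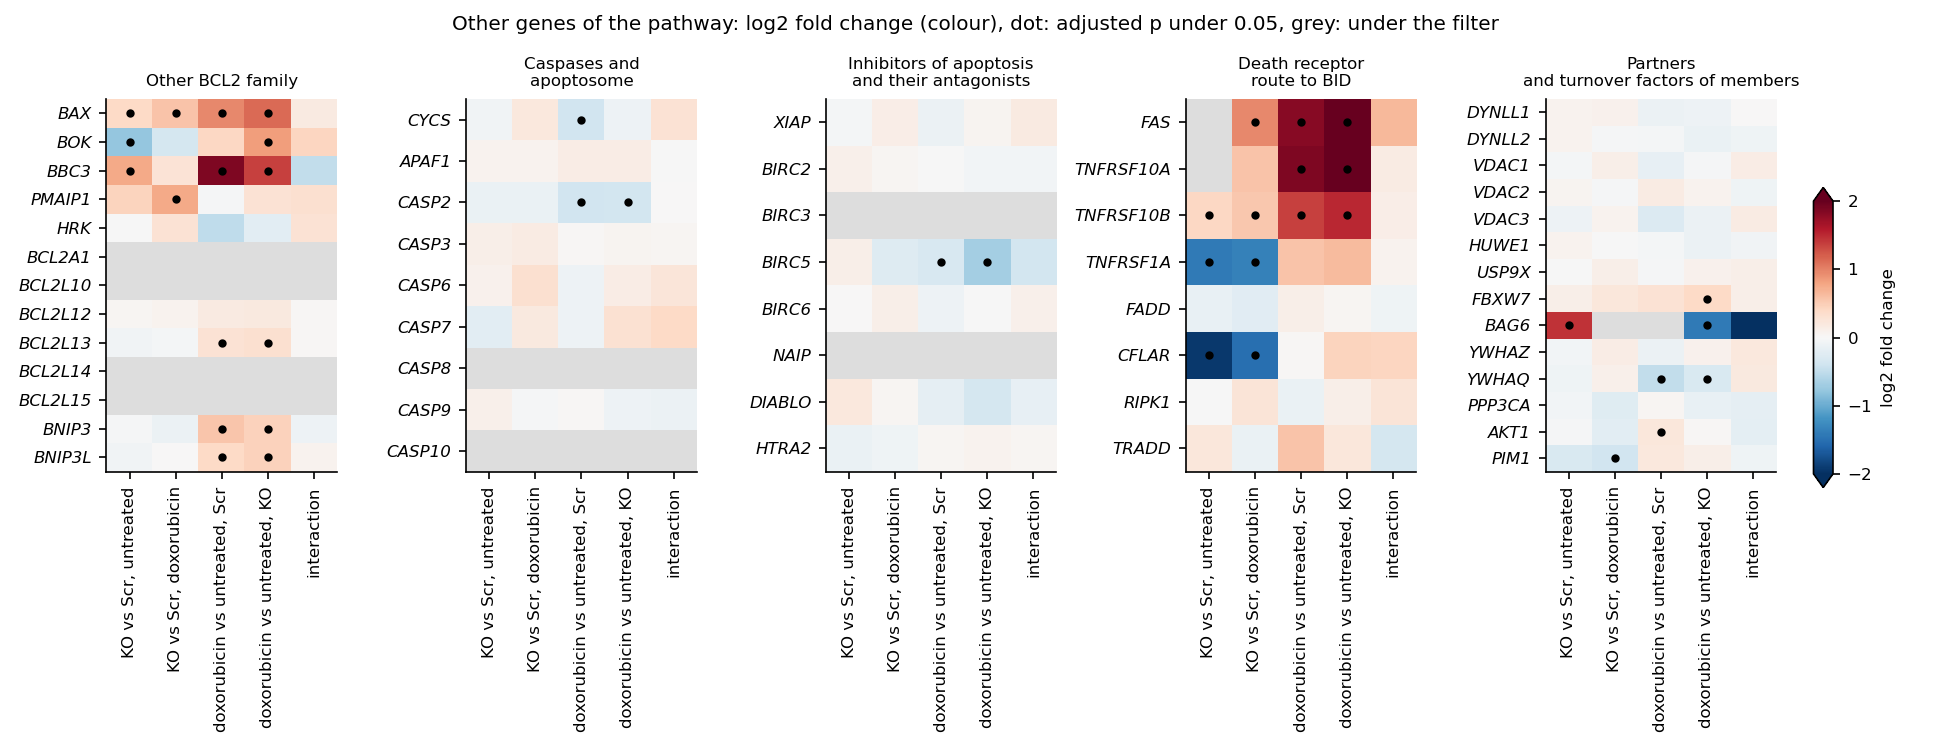
Log2 fold change of 52 other genes of the pathway in the 4 comparisons and the interaction, in 5 lists, with a dot for an adjusted p under 0.05, grey for genes under the filter on low values, and values beyond the ends of the scale drawn in the end colours. BAX, BBC3 and TNFRSF10B rose with doxorubicin in both genotypes, and CFLAR was lower in KO in both treatments. Dots of FAS and TNFRSF10A in the drug responses, of TNFRSF1A without treatment and of BAG6 belong to genes that passed the filter through 1 group alone.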

How the data were processed

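Poly(A) RNA of 16 SH-SY5Y libraries was sequenced with a directional kit. Per the labels' processing notes the authors used bcl2fastq, HISAT2 2.1.0, HTSeq and edgeR with GRCh38. The annotation release and the use of strand in counting are not given in the sources used here. The deposited values are a signal, counts scaled to library size (CPM) that the authors normalized by a factor per library (0.974 to 1.03), in 2 tables of 8 libraries. Whole reads were recovered for 100% of values, within 0.01 reads. The factors multiplied to 1.03 over the 16 libraries, 1.10 within the untreated and 0.935 within the doxorubicin table, so the values were used across tables as deposited. The authors' 4 comparison columns per table (fold changes, p-values and the like) were not used, and 0 columns per library were left unassigned.

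Genes reaching 1 normalized CPM in 4 or more libraries of a comparison were tested with limma 3.58.1 in R 4.3.3 (abundance trend, log2(normalized CPM + 1), 8 libraries, or 16 for the interaction), with Benjamini-Hochberg adjustment over all genes and a threshold of 0.05. Fold changes are on this scale, which understates changes of low genes. Single genes were also compared with two-sided exact permutation tests. edgeR 4.0.16 and DESeq2 1.42.0 ran on the recovered reads as alternatives. The fits were checked on simulated data with independent libraries and no clone effect. That check does not cover the clones of the real data or their effect on the p-values. A floor of 3 reads covers counting error only.

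All 10 genes were named whatever their values, and at most 4 called genes per list and comparison, those with the smallest p. BNIP3L in the KO response and BCL2L13 were named beyond this limit. The members and lists were chosen with earlier results of these data known. Gene names were found for 95.9% of identifiers, and exon lengths and positions come from GENCODE 29. Promoter sequences are RefSeq's, on GRCh38.p14.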

Additional observations from a re-analysis of the deposited data

Results flagged for a closer look

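In each group of 4 libraries, the highest or lowest library of each of the 9 tested genes was set against Dixon's 95% critical value for its gap to the nearest other library, as a share of the group's range. Of 36 groups tested 3 passed it, where chance gives about 1 in 20. MCL1 in untreated KO was low in replicate 1 of KO28 at 229 normalized CPM, a gap of 0.897 of the range. BAK1 in doxorubicin KO was high in replicate 2 of KO28 at 18.1, a gap of 0.944. BCL2L11 in untreated KO was high in replicate 2 of KO11 at 60.8, a gap of 0.836. No explanation was tested for any of them.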

How the results depend on the processing

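The alternatives covered the filter on low values, the pseudocount, library size alone, edgeR, DESeq2, a replicate block, clone terms or clone means, each library and each clone left out, and, chosen after seeing the data, TMM factors over the 16 libraries. Of the recomputed differences of single family genes, 908 kept their direction and their side of the threshold, 22 lost the threshold, 2 passed it newly and 49 changed sign, none of these a called difference. Of the called differences of the other lists, recomputed in the same way as a choice made after seeing the data, 684 values kept their call and 95 lost it, with 0 changes of sign. This tally includes genes that passed the filter through 1 group alone, whose calls are no support for a change. They are FAS and TNFRSF10A in the drug responses, TNFRSF1A without treatment, and BAG6. The causes of the changes below were not tested. BIK, at 0 to 20 reads per library, stayed under the filter, and BAK1 rested on 133 to 303 reads, and whether more depth would change a call was not tested. Fits without a clone leave 2 libraries against 4 between genotypes, 2 against 2 in a drug response and 2 in each of 2 groups of the interaction.

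Genes called between genotypes without treatment were 695, and 368 without a filter, 330 without Scr13 and 327 without Scr16. After doxorubicin they were 1266, and 510 without KO11 and 575 without KO28. With doxorubicin in Scr they were 1669, and 857 without a filter, 237 without Scr13 and 781 without Scr16. With doxorubicin in KO they were 2539, and 995 without KO11. In the interaction they were 3, and 5 without a filter or without Scr13, 31 with DESeq2, 1 without KO28 and 0 without KO11 or Scr16. Without 1 library the counts were 508 to 678, 814 to 1314, 1081 to 1676, 1740 to 2835 and 1 to 4 in this order.

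Of the 9 family genes, BCL2 without treatment was lost (0 called) with clone means and without KO28, Scr13 or Scr16, and 2 were called without KO11 (BCL2 and BMF). BCL2L1 after doxorubicin was lost (0 called) without a filter, with clone means, and without KO11, KO28 or Scr13. BID was lost (0 called) in Scr without a filter or Scr13, and in KO without KO11. Without 1 library the count was 1 to 1 and 0 to 1 between genotypes, 0 to 1 in Scr, 1 to 2 in KO (BID, and BAK1 without untreated replicate 2 of KO28) and 0 to 0 in the interaction.

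The replicate numbers gave no ground for pairing. Over 28 pairs of clone and treatment, deviations of same-numbered libraries correlated between -0.10 and 0.12 (median 0.03), with 1 pair over 0.1. With the replicate number as a block, 697, 1365, 1876 and 2540 genes were called in the 4 comparisons and 7 in the interaction, and no family gene changed its call.

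Sign changes of log2 differences that had not passed were small. With library size alone MCL1 without treatment was -0.0051 and BAD in the Scr response -0.013. Without KO11, MCL1 was -0.063 between genotypes without treatment, BCL2 0.033 and BID 0.099 after doxorubicin, BCL2L1 -0.017 and MCL1 0.0022 in the KO response, and BCL2L11 0.050 and BID 0.042 in the interaction. Without KO28, BAK1 was -0.088 and BAD -0.028 without treatment, BAD 0.013 and BMF 0.062 in the KO response, and BAD 0.00049 in the interaction. Without Scr13, BAK1 was -0.0996 without treatment, BAD 0.13 after doxorubicin, BAK1 -0.023 and BAD -0.13 in the Scr response, and BAD 0.038 in the interaction. Without Scr16, MCL1 was -0.010 without treatment, BID 0.11 after doxorubicin, BMF -0.046 in the Scr response and BID 0.067 in the interaction.

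Without 1 library, the difference between genotypes without treatment ranged from -0.024 to 0.087 for MCL1, from -0.018 to 0.21 for BAK1, from -0.0089 to 0.14 for BAD and from -0.012 to 0.090 for BID. After doxorubicin it ranged from -0.16 to 0.070 for BAD and from -0.087 to 0.059 for BID. The Scr response ranged from -0.16 to 0.0017 for BCL2L1, from -0.0035 to 0.18 for BAK1 and from -0.096 to 0.14 for BAD, and the KO response from -0.10 to 0.0058 for MCL1. The interaction ranged from -0.11 to 0.030 for BCL2L11, from -0.22 to 0.0091 for BAD and from -0.13 to 0.020 for BID.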

Other observations

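The ratio of BAX to BCL2, computed in each library from normalized CPM as a description of how the effector and the survival gene stood to each other, was chosen after both genes' values were seen. It was 0.701 and 0.795 in untreated KO11, 0.861 and 1.09 in untreated KO28, 0.554 and 0.528 in untreated Scr13, and 0.459 and 0.469 in untreated Scr16. After doxorubicin it was 1.77 and 1.67 in KO11, 1.49 and 1.70 in KO28, 1.26 and 1.17 in Scr13, and 0.877 and 1.02 in Scr16. The KO libraries lay above the Scr libraries within each treatment, with group means of 0.863 ± 0.168 against 0.502 ± 0.0456 without and 1.66 ± 0.121 against 1.08 ± 0.169 after doxorubicin (SD, n = 4). The ratio carries the BCL2 and BAX differences given above and adds no independent evidence to them, and exon lengths were not taken into account.

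BNIP3 and BNIP3L, which encode mitochondrial proteins of the family's outer circle that take part in mitophagy, rose with doxorubicin in both genotypes. BNIP3 went from 109 ± 12.8 to 161 ± 16.7 normalized CPM in Scr (log2 fold change 0.55, adjusted p = 0.000551) and from 107 ± 10.2 to 148 ± 4.72 in KO libraries (0.46, adjusted p = 0.000247, limma). BNIP3L went from 147 ± 20.46 to 193 ± 15.8 in Scr (0.39, adjusted p = 0.00807) and from 140.2 ± 15.1 to 193 ± 15.4 in KO libraries (0.46, adjusted p = 0.000348). The BNIP3L call in Scr was lost without a filter on low values (0.0670) and without Scr13 (0.249).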
